A study of Mus musculus with 2 samples.

Results

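The mitochondrial genome of the mouse carries 37 genes, of which 13 encode proteins of the respiratory chain, 2 encode the ribosomal RNAs of the mitochondrial ribosome and 22 encode transfer RNAs. These 37 genes were taken from all 69691 features of the deposited gene tables (43346 of them with an Ensembl ID) by their position on chromosome M. They were measured by total RNA sequencing in 2 libraries of stomach tissue of newborn mice of strain B6NCrl. Both are of the day of birth (age 0 days), with no treatment named, of uncollected sex and labelled as pregnant 1. Whether a library came from 1 animal or from pooled stomachs is not stated. The libraries labelled replicate 2 and replicate 1 are called pup 2 and pup 1 here. Each was made from 10 ng of RNA longer than 200 nucleotides, with 49983574 expected counts in pup 2 and 51524479 in pup 1. There is 1 group and no treatment, so levels are given per pup or as the mean ± SD (n = 2), and a difference between the pups has no replicate check. The 9 stomach markers, among them the milk-clotting protease gene Cym and the proton pump genes Atp4a and Atp4b, all reached 1 TPM in each library, TPM being a relative unit of transcript number that is scaled for length. In RNA of stomach tissue, fewer cells of a type and less RNA per cell cannot be told apart.

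Mitochondrial DNA is a circle read from both strands into long primary transcripts. Most genes lie on 1 strand, and the transfer RNAs stand between the larger genes like punctuation: cutting them out releases the messenger and ribosomal RNAs. The proteins are core subunits of complexes I, III, IV and V, which pass electrons to oxygen and make ATP, and each of these complexes also needs subunits encoded in the nucleus. Nuclear chromosomes hold old copies of mitochondrial DNA, which are annotated as pseudogenes.

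Of the 37 genes, 28 lay on the plus strand of the annotation and 9 on the minus strand, namely mt-Nd6 and the transfer RNA genes mt-Tq, mt-Ta, mt-Tn, mt-Tc, mt-Ty, mt-Ts1, mt-Te and mt-Tp. The other transfer RNA genes, mt-Tf, mt-Tv, mt-Tl1, mt-Ti, mt-Tm, mt-Tw, mt-Td, mt-Tk, mt-Tg, mt-Tr, mt-Th, mt-Ts2, mt-Tl2 and mt-Tt, lay on the plus strand. The genes were packed tightly. Of the 36 pairs of neighbours from mt-Tf to mt-Tp, 12 adjoined with no base between them, 9 overlapped and 15 were separated. Of these 15, 14 were separated by at most 5 bases and the last by 32. The stretch from mt-Tp round the circle to mt-Tf was not counted. The stretch around mt-Tl1, a leucine transfer RNA gene, shows this punctuation. In this sequence, which like all those shown was read from GENCODE M21 transcripts, on the plus strand of build mm10 at chrM:2656-2770, mt-Tl1 is in capitals, with the end of the ribosomal RNA gene mt-Rnr2 before it and the start of the complex I gene mt-Nd1 after it.
mt-Rnr2, mt-Tl1, mt-Nd1: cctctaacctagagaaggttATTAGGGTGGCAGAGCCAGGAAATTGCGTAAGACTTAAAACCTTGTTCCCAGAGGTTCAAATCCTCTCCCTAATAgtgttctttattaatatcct

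The 22 transfer RNA genes were listed at 0 in both pups, and this is not a measurement of their RNA. They are 59 to 75 bases long, from mt-Ts2 to mt-Tl1, and the deposited effective length, the number of start positions that a read can take in a transcript, is 0 for each of them. All 28403 features with an effective length of 0 were listed at 0 counts in both libraries. Longer members had 99 start positions fewer than bases, which is what reads of 100 bases give. The size selection above 200 nucleotides also lies above the length of these RNAs. The levels below therefore concern 15 genes, the 13 messenger RNAs and the 2 ribosomal RNAs, all of which had a mean expected count of at least 100.

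Together the 15 genes took 1474440 of the expected counts of pup 2 and 1690140 of those of pup 1, which is 2.95% and 3.28% of each library. The ribosomal RNAs took 26.3% of these counts in pup 2 and 31.5% in pup 1, and the messenger RNAs the rest. In TPM the messenger RNAs held 4.20% in pup 2 and 4.38% in pup 1, against 0.753% and 0.975% for the ribosomal RNAs. In these libraries the messenger RNAs so exceeded the ribosomal RNAs 5.58-fold in pup 2 and 4.49-fold in pup 1. Whether ribosomal RNA was removed before sequencing is not stated here, so this ratio may not be that of the tissue.

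Before the levels, the nuclear copies have to be described, since reads of a mitochondrial gene cannot be placed where a copy has the same letters. Among the annotated transcripts of GENCODE M21, 7 nuclear genes matched a member over at least 100 bases at 98% identity or more. All are unprocessed pseudogenes on the minus strand of chromosome 1, in a block of 4663 bases from 24611535 to 24616197 (mm10), in the order in which their counterparts lie on the mitochondrial genome. Gm29216 matches the last part of mt-Co1, Gm28661 matches mt-Co2, Gm10925 mt-Atp6, Gm28437 mt-Co3, Gm28438 mt-Nd3 and Gm10222 mt-Nd4l over nearly their whole length, and Gm28439 matches the first 876 bases of mt-Nd4. In 5 of the 7 the aligned stretch has no difference at all. The first 60 bases of mt-Co3 and of mt-Nd4l are shown because they read the same in the chromosome 1 copy, as do the 783 and 294 bases aligned in all.
mt-Co3, chrM:8607-8666, plus strand, the same in Gm28437: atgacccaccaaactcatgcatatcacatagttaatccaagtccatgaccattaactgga
mt-Nd4l, chrM:9877-9936, plus strand, the same in Gm10222: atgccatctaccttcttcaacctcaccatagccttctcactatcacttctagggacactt

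The other 2 copies differ from the member at a single base in the aligned stretch. Between mt-Nd3 and Gm28438 it is T3C, and between mt-Co1 and Gm29216 it is A1066T, where the first letter is that of the mitochondrial gene, the position counts from 1 at its first base, and the last letter is that of the copy. Both pairs are shown with the differing base in capitals.
mt-Nd3, chrM:9459-9518, plus strand: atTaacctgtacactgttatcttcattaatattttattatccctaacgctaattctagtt
Gm28438, chr1:24613060-24613119, minus strand: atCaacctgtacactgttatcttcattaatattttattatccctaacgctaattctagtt
mt-Co1, chrM:6390-6449, plus strand: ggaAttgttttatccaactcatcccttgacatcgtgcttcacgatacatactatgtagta
Gm29216, chr1:24616129-24616188, minus strand: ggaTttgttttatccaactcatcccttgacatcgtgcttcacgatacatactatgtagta

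A more distant copy on chromosome 2, Gm13340, spans the whole of mt-Co1 at 97.6% identity with 37 differences over 1545 bases. It is shown in a 60-base window that holds 4 of the differences, again in capitals, as a copy whose differences are spread along the gene.
mt-Co1, chrM:5787-5846, plus strand: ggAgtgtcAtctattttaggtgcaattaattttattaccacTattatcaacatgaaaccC
Gm13340, chr2:22589129-22589188, minus strand: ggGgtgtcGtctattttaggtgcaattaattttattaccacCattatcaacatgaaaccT
Gm13340 was assigned 89.96 counts in pup 2 and 89.66 in pup 1, against 230980 and 229707 counts for mt-Co1.

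The chromosome 1 copies took a large part of the reads. Together they held 501385 counts in pup 2 and 481367 in pup 1, which is 25.4% and 22.2% of the counts of the members and copies combined. They also held 42.9% of the TPM of all pseudogenes in pup 2 and 40.1% in pup 1. For mt-Nd4l the copy held 93.7% of the counts of the pair in pup 2 and 91.2% in pup 1. For mt-Nd3 it held 81.5% in pup 2 and 77.9% in pup 1, for mt-Co3 76.7% and 70.1%, and for mt-Co2 43.8% and 33.5%. For mt-Atp6, whose copy is as complete as those of mt-Co3 and mt-Co2, it held only 5.35% in pup 2 and 5.58% in pup 1. These shares rest on the expected counts. The posterior mean TPM, a second deposited estimate, divided the pairs of mt-Atp6 and mt-Co3 otherwise. It gave Gm10925 2102 against 10140 for mt-Atp6 in pup 2, and 2190 against 10034 in pup 1. Gm28437 had 8446 against 5244 for mt-Co3 in pup 2, and 8231 against 5828 in pup 1.

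**Figure D1:**
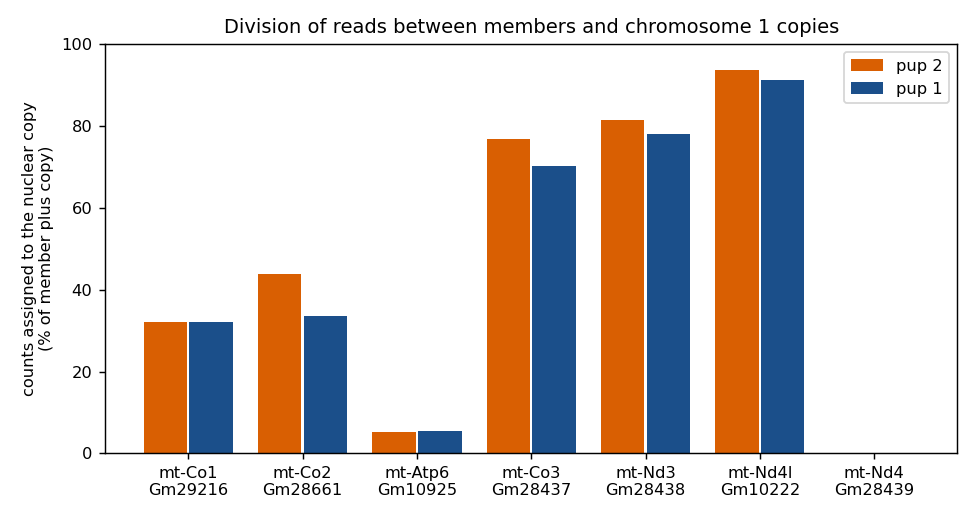
Share of the expected counts of each mitochondrial gene and its chromosome 1 copy that was assigned to the copy, in percent, with 1 bar per pup. The share ran from 0 for mt-Nd4 in pup 2 to 93.7% for mt-Nd4l in pup 2, although the copies of mt-Co2, mt-Atp6, mt-Co3, mt-Nd3 and mt-Nd4l all cover over 98% of the member.

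The 2 partial copies stood at opposite ends. Gm29216 aligns to 31.3% of the length of mt-Co1 and held 32.0% of the counts of the pair in each pup. Gm28439 aligns to 63.6% of mt-Nd4 without a difference and held 0 counts in pup 2 and 3.26 in pup 1. The reference used here is that of C57BL/6J, while the pups were B6NCrl, and whether this bore on the division of reads was not tested.

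The expected counts also showed where the reads had been divided. Whole reads that are split leave fractions in each gene but sum to a whole number over the genes that share them. Of the 9 members with a copy at 90% identity or more that had any count, 1 (mt-Nd5) was whole alone in both pups, and 9 were whole (within 0.02 counts) once the counts of their copies were added. The other 6 members were whole as deposited. For mt-Nd3, 4140.75 counts in pup 2 and 5241.70 in pup 1 became 22408 and 23756 with Gm28438. For mt-Co2, the sum with Gm28661 and the chromosome 2 copy Gm13341 was 146547 counts in pup 2 and 149443 in pup 1. With Gm13341 alone it was 82417 in pup 2, already whole, and 99444.78 in pup 1.

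The deposited uncertainty followed the sequence. Of the 15 genes, 7 had no window of 100 bases that occurs letter for letter in a nuclear transcript: mt-Rnr1, mt-Rnr2, mt-Nd1, mt-Atp8, mt-Nd5, mt-Nd6 and mt-Cytb. No window was shared between 2 members. In these 7 genes the posterior SD of the count was 0 in pup 2 and at most 9.4e-05% of the posterior mean count in pup 1. In mt-Nd2, mt-Co1 and mt-Nd4, where 3.19%, 30.8% and 60.8% of windows were shared, it stayed at or under 0.112% in both pups. In the 5 genes with 97.6% to 99.9% of windows shared it was far larger. For mt-Co3 it was 61.0% of the posterior mean count in pup 2 and 54.7% in pup 1. For mt-Nd4l it was 56.0% and 33.3%, for mt-Co2 22.5% and 17.4%, for mt-Nd3 13.7% and 9.43%, and for mt-Atp6 10.4% and 11.2%. The posterior mean count differed from the expected count. For mt-Co3 it was 144841 against 87907 in pup 2 and 167418 against 120654 in pup 1, with an SD of 88391 and 91586. For mt-Atp6 it was lower than the expected count, 237952 against 271686 in pup 2 and 244913 against 281473 in pup 1.

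**Figure D2:**
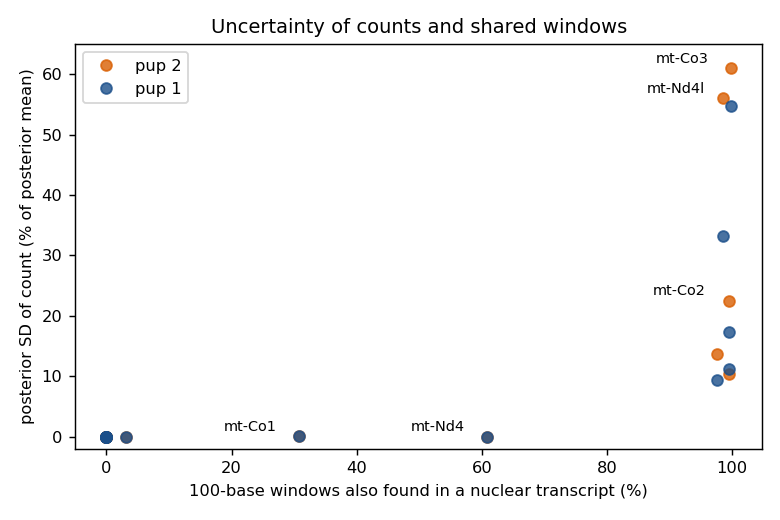
Posterior SD of the count, in percent of the posterior mean count, against the percent of a gene's 100-base windows that also occur in a nuclear transcript, for 15 genes in each pup. The 5 genes at 97.6% or more lie between 9.43% and 61.0%, and the other 10 lie at or under 0.112%, with mt-Nd4 low at 60.8% of windows shared.

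Complex V is the ATP synthase, and its mitochondrial genes mt-Atp8 and mt-Atp6 had the highest levels of all members. mt-Atp6 (positions 7927 to 8607), the subunit through which protons pass, had 11747 TPM in pup 2 and 11694 TPM in pup 1, rank 6 and rank 7 among all features. mt-Atp8 (7766 to 7969), a small subunit, had 9748 in pup 2 and 10172 in pup 1. The 2 genes share 43 bases, in capitals in the stretch chrM:7897-7999 of the plus strand, where mt-Atp6 begins in another reading frame inside mt-Atp8.
mt-Atp8 and mt-Atp6: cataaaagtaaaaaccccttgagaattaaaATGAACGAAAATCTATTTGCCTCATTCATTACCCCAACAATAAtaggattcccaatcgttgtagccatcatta
The pair lies on 1 messenger RNA, and the TPM of mt-Atp8 was 0.830 of that of mt-Atp6 in pup 2 and 0.870 in pup 1. That ratio depends on the length used: mt-Atp8 has 204 bases but an effective length of 105, and with counts per full length it was 0.4998 in pup 2 and 0.5239 in pup 1.

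Complex IV, cytochrome c oxidase, reduces oxygen, and mt-Co1, mt-Co2 and mt-Co3 form its catalytic core. mt-Co1 (5328 to 6872), which holds the site of oxygen reduction, had 4020 TPM in pup 2 and 3841 TPM in pup 1. mt-Co2 (7013 to 7696), which takes electrons from cytochrome c, had 3542 in pup 2 and 4107 in pup 1. mt-Co3 (8607 to 9390) had 3229 in pup 2 and 4259 in pup 1. The posterior mean of mt-Co3 was higher, at 5244 TPM in pup 2 and 5828 in pup 1. Its deposited 95% interval ran from 1879 to 10946 TPM in pup 2 and from 2318 to 11490 in pup 1. These levels depend on the copies. With the counts of the chromosome 1 copy added and divided by the effective length of the member, mt-Co3 had 13878 TPM in pup 2 and 14244 in pup 1, the highest of the 13 genes, mt-Co2 had 6300 and 6174, and mt-Co1 had 5912 and 5650. This pooled level assumes that all reads came from the member, which these data do not measure.

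The only mitochondrial gene of complex III is mt-Cytb (14145 to 15288), cytochrome b, with 3524 TPM in pup 2 and 3113 TPM in pup 1. It had no shared window and 146336 counts in pup 2 and 134548 in pup 1.

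The 7 genes of complex I, the NADH dehydrogenase, spread most. mt-Nd1 (2751 to 3707) led with 2939 TPM in pup 2 and 2979 in pup 1, followed by mt-Nd4 (10167 to 11544) with 1199 and 1204. mt-Nd2 (3914 to 4951) had 693 in pup 2 and 742 in pup 1, and mt-Nd3 (9459 to 9806) had 418 and 509. mt-Nd5 (11742 to 13565), the longest gene, had 369 in pup 2 and 447 in pup 1. Their median was 607 ± 65.1 TPM, which is lower than each member of complexes III, IV and V.

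mt-Nd4l (9877 to 10173) was the lowest measured member, with 43.5 TPM in pup 2 and 60.6 TPM in pup 1. It lies on 1 messenger RNA with mt-Nd4 and shares 7 bases with it, in capitals in the stretch chrM:10142-10198 of the plus strand.
mt-Nd4l and mt-Nd4: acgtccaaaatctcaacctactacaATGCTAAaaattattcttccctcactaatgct
Its TPM was 0.0363 of that of mt-Nd4 in pup 2 and 0.0503 in pup 1. With the counts of Gm10222 added, mt-Nd4l had 686 TPM in pup 2 and 692 in pup 1, and mt-Nd3 with Gm28438 had 2265 and 2307. The spread over the 13 messenger RNAs, from highest to lowest mean TPM, was 225-fold for the members alone and 34.5-fold with the copies pooled.

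mt-Nd6 (13552 to 14070), the complex I gene of the minus strand, had 561 TPM in pup 2 and 653 TPM in pup 1. Its counts were 9360 in pup 2 and 11340 in pup 1. The level was 0.182 of the median of the other 12 messenger RNAs in pup 2 and 0.214 in pup 1. It overlaps mt-Nd5 of the opposite strand by 14 bases. Its TPM was above that of mt-Nd5, 1.52-fold in pup 2 and 1.46-fold in pup 1. The strandedness of the libraries was not given in the sources used here. Reads of a transcript that runs through this region on the other strand therefore cannot be told apart from reads of mt-Nd6.

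The ribosomal RNAs are the small subunit mt-Rnr1 (70 to 1024) and the large subunit mt-Rnr2 (1094 to 2675), separated only by mt-Tv. mt-Rnr1 had 2226 TPM in pup 2 and 2506 TPM in pup 1, and mt-Rnr2 had 5306 in pup 2 and 7244 in pup 1. The ratio of mt-Rnr2 to mt-Rnr1 was 2.38 in pup 2 and 2.89 in pup 1. These levels, their ratio and their differences between the pups are those of the libraries and may not be those of the tissue.

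**Figure D3:**
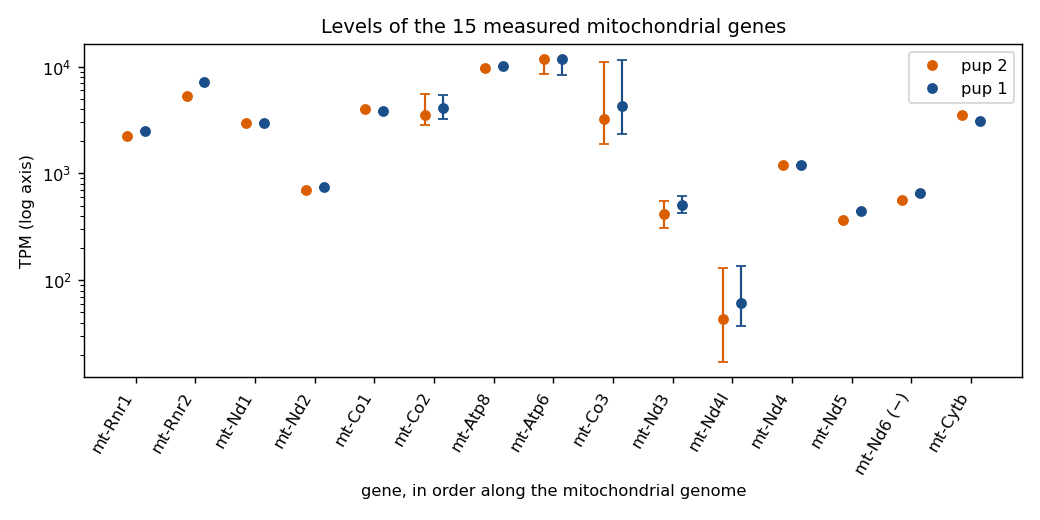
TPM of the 15 measured genes in each pup (points, log axis) in genome order, with the deposited 95% interval around the posterior mean as bars; mt-Nd6 is marked as the minus-strand gene. The bars are wide only for mt-Co2, mt-Atp6, mt-Co3, mt-Nd3 and mt-Nd4l, and levels run from 43.5 for mt-Nd4l in pup 2 to 11747 for mt-Atp6 in pup 2.

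By mean TPM the order was mt-Atp6, mt-Atp8, mt-Rnr2, mt-Co1, mt-Co2, mt-Co3, mt-Cytb, mt-Nd1, mt-Rnr1, mt-Nd4, mt-Nd2, mt-Nd6, mt-Nd3, mt-Nd5 and mt-Nd4l. Of the 14 pairs of neighbours in this order, 8 had deposited intervals apart in both pups. The other 6 pairs had intervals that overlapped in at least 1 pup: mt-Atp6 and mt-Atp8, mt-Co1 and mt-Co2, mt-Co2 and mt-Co3, mt-Co3 and mt-Cytb, mt-Nd6 and mt-Nd3, and mt-Nd3 and mt-Nd5. Pairs farther apart in the order were not compared in this way, and the wide interval of mt-Co3 reached past several genes that are not its neighbours. Across the 12 plus-strand messenger RNAs, Spearman's rho between position in the gene order and mean TPM was -0.38. With the copies added it was -0.31. Both values describe 12 genes read from shared transcripts. Intervals are set against intervals only, because the deposited TPM itself lay above its own 95% interval for 9 of the 15 genes in pup 2 and for 10 in pup 1.

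The 3 messenger RNA genes whose length is not a multiple of 3 end in an incomplete stop codon, a T that the poly(A) tail completes to a stop. Their last 24 bases on the plus strand are shown with that T in capitals.
mt-Co3, chrM:9367-9390: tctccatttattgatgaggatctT
mt-Nd4, chrM:11521-11544: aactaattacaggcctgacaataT
mt-Cytb, chrM:15265-15288: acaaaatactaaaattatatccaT
The annotated copy of mt-Co3 on chromosome 1 stops at base 783 of the 784, just before that T.

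Between the pups, most mitochondrial genes were close. Differences are given as log2 ratios of pup 2 to pup 1 after adding 1 TPM to each level, a scale that understates those of low genes. Over the 13 messenger RNAs the median was -0.10, with 10 genes lower and 3 higher in pup 2, beside a median of 0.03 over 13493 nuclear protein-coding genes that reached 1 TPM in 1 pup or more. The largest values among genes with no shared window were -0.45 for mt-Rnr2, -0.28 for mt-Nd5 and -0.22 for mt-Nd6 on 1 side and 0.18 for mt-Cytb on the other. No member differed 1.5-fold beyond its quantification error, against 1.06% of genes higher and 0.545% lower in pup 2, or 2-fold, against 0.301% higher and 0.115% lower.

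A gene with a mean count of 100 or more was called apart where its deposited 95% interval in pup 2 lay wholly above or below that in pup 1. By this rule 2 of the 15 members, mt-Cytb and mt-Co1, were higher in pup 2, against 12.9% of 13951 genes. The rule called 7 of the 15 lower in pup 2, namely mt-Rnr1, mt-Rnr2, mt-Nd1, mt-Nd2, mt-Atp8, mt-Nd5 and mt-Nd6, against 8.33% of those genes. In either direction that made 9 of 15, against 21.2%. These intervals narrow with depth and hold no error of library preparation. Among the 757 genes with a mean count of at least 10000, 26.4% were higher and 33.7% lower in pup 2, and among the 13 members at that depth 2 were higher and 7 lower. For mt-Nd1 the difference called was only -0.02.

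The lower values of the copied genes in pup 2 went with a different division of reads. The member alone had a log2 difference of -0.47 for mt-Nd4l, -0.40 for mt-Co3, -0.28 for mt-Nd3 and -0.21 for mt-Co2, and in each the intervals of the pups overlapped. With the copy's counts pooled, the same genes had -0.01, -0.04, -0.03 and 0.03. The SD of the log2 difference over the 13 messenger RNAs was 0.190 for the members alone and 0.116 with the copies pooled.

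**Figure D4:**
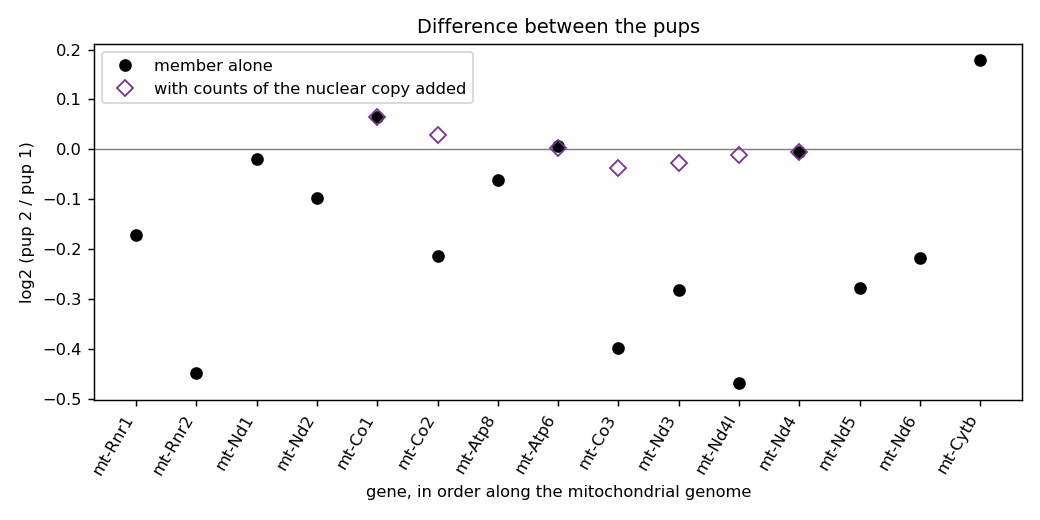
log2 of TPM in pup 2 over pup 1 for the 15 genes in genome order (filled points), and for the 7 genes with a chromosome 1 copy also after adding the copy's counts (open diamonds). The pooled values lie between -0.04 and 0.07, and those of the same 7 genes alone between -0.47 and 0.07. The other genes have 1 value each, since no counts of a copy were added to them.

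Markers of some cell types and tissues, though not all of those listed, also differed between the pups. All 5 smooth muscle markers were lower in pup 2 beyond quantification error, with summed TPM of 6348 in pup 2 and 7871 in pup 1. All 7 parietal cell markers were higher in pup 2, with sums of 1691 and 1429, and the mitochondria-rich parietal cell is defined here by Atp4a at 598 TPM in pup 2 and 519 in pup 1. Of 5 liver markers 4 were higher in pup 2 (sums of 190.3 and 125), among them Alb at 34.0 TPM in pup 2 and 20.2 in pup 1. Of 5 erythroid markers 4 were higher in pup 2 (sums of 1924 and 1521), and of the 4 of 5 skeletal muscle markers with a mean count of 100, 2 (sums of 71.4 and 65.4). These counts stand beside 12.9% of all genes higher and 8.33% lower, and, at a mean count of 10000, which all 5 smooth muscle markers reach, 26.4% higher and 33.7% lower. Of the 3 heart markers (sums of 34.3 and 31.8) only Tnnt2 had a mean count of 100, and it was not called. Tnnt2 stood at 34.0 TPM in pup 2 and 31.0 in pup 1, Nppa at 0.26 and 0.63, and Myh6 at 0.05 and 0.09. Of the 3 brown fat markers (sums of 44.8 and 42.9) 2 had such a count and neither was called. These were Cox7a1, at 38.2 TPM in pup 2 and 36.2 in pup 1, and Cidea, at 6.62 and 6.68. The defining Ucp1, with 2 counts in each pup, stood at 0.03 TPM in each pup. The part of cell make-up in the mitochondrial differences was not tested.

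Each complex joins these gene products to nuclear ones, and the mitochondrial messenger RNAs had the higher median level per length in every complex and both pups. The gap was widest for complex V, at a median of 10748 TPM for its 2 mitochondrial genes against 582 for 15 nuclear ones in pup 2, and 10933 against 606 in pup 1. For complex III, mt-Cytb exceeded the median of 9 nuclear subunits 6.88-fold in pup 2 and 6.31-fold in pup 1. For complex IV the ratio of medians was 3.37 in pup 2 and 3.69 in pup 1, over 3 mitochondrial and 10 nuclear genes. That ratio moved with the copies, to 5.99 in pup 2 and 5.55 in pup 1 with their counts pooled over the member's length, and to 10.4 and 9.43, above complex III, with their TPM added. The ratio of the members alone was smallest for complex I, at 1.95 in pup 2 and 2.18 in pup 1, over 7 mitochondrial and 36 nuclear genes.

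**Figure D5:**
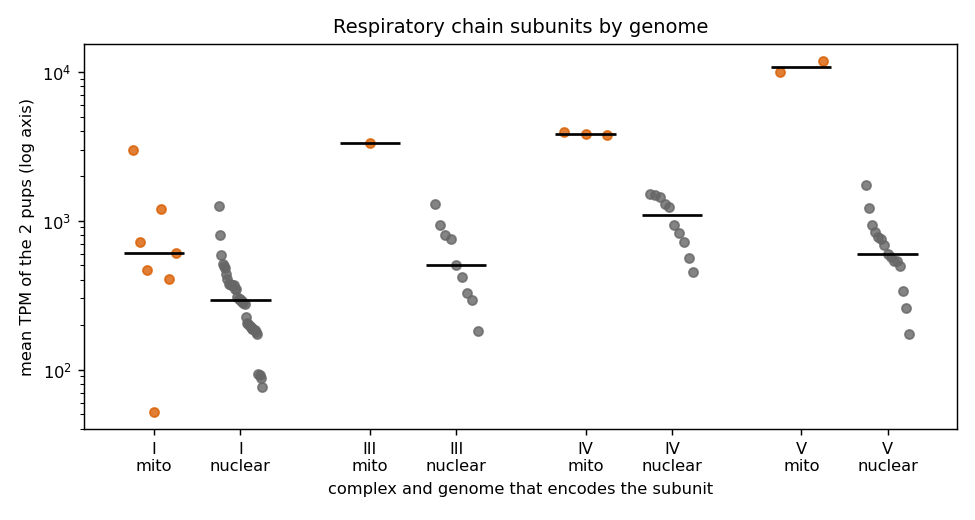
Mean TPM of the 2 pups (log axis) for each subunit gene of complexes I, III, IV and V, mitochondrial (orange) beside nuclear (grey); each point is a gene and the line is the median. All mitochondrial genes of complexes III, IV and V lie above the highest nuclear subunit, Atp5b at 1748, while complex I genes spread over 52.0 to 2959.

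The nuclear subunits differed little between the pups. Over all genes, 17.0% were higher and 11.9% lower in pup 2 at a mean count of 1000, and 26.4% and 33.7% at 10000. In complex I, 13 of 36 were lower and 0 higher, all 36 at a mean count over 1000, but of the 6 over 10000 0 were called. Ndufa4, the highest of the list, which is placed here by its symbol although its product is now counted as a complex IV subunit, stood at 1266 TPM in pup 2 and 1248 in pup 1 and was not called. Ndufc1 was lower, at 762 and 844, and Ndufb9 was not called, at 593 and 589. In complex IV, all at a mean count over 10000, 7 of 10 were lower and 0 higher, led by Cox6c (1462 TPM in pup 2, 1538 in pup 1), Cox8a (1431 and 1531) and Cox6b1 (1407 and 1463). In complex V, 8 of 15 were lower and 0 higher, and of the 11 over 10000 5 were lower. Atp5g1, a gene of the rotating proton ring, had 862 TPM in pup 2 and 1016 in pup 1, Atp5g3, another gene of that ring, had 1167 and 1269, and Atp5b, the catalytic subunit, had 1738 and 1759 and was not called. In complex III, 3 of 9 were lower, with Uqcr11 as the third, and 2 higher, Uqcrc1 and Cyc1; the list was led by Uqcr10 (1268 TPM in pup 2, 1303 in pup 1, not called), Uqcrb (918 and 949, lower) and Uqcrq (773 and 833, lower). None of these genes differed 1.5-fold. Median log2 differences were -0.03, -0.04, -0.08 and -0.06 for complexes I, III, IV and V.

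The nuclear genes that make and read mitochondrial RNA stood at far lower levels. The 10 transcription genes had a median of 13.9 ± 1.70 TPM, led by the termination factor family gene Mterf3 (36.6 ± 3.77), the DNA-packaging factor Tfam (28.9 ± 1.22) and the initiation factor Tfb2m (25.8 ± 1.70). Mterf3 was lower in pup 2, and no other was called. Over all genes with a mean count of at least 100, 12.9% were higher and 8.33% lower in pup 2. These shares also stand beside the calls of the replication genes. The 8 replication genes had a median of 8.53 ± 1.02, led by the single-strand binding protein gene Ssbp1 (77.5 ± 2.60), Rnaseh1 (14.4 ± 0.0566) and the polymerase gene Polg (12.2 ± 1.56), with Tk2 higher (9.66 TPM in pup 2, 7.93 in pup 1) and Mgme1 lower (5.82 and 7.16) in pup 2.

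Among the 17 genes of RNA processing and stability the median was 14.7 TPM in pup 2 and 15.4 TPM in pup 1. Slirp, which binds messenger RNA with Lrpprc, led at 199 ± 7.12. Rexo2, a nuclease that degrades short RNA, stood at 120.1 TPM in pup 2 and 137 in pup 1 and was the only member lower. Hsd17b10, a subunit of the RNase P that cuts out transfer RNAs, stood at 129 and 117 and was the only member higher. That is 1 of 17 in each direction, beside 12.9% of all genes higher and 8.33% lower. The 77 mitoribosome genes had a median of 73.4 ± 1.72, with 2 higher in pup 2, Mrpl10 and Mrps2, and 11 lower, beside 11.9% of all genes lower and 17.0% higher at a mean count of 1000, which 75 of the 77 reached. They were led by Mrpl17 (288 ± 23.6) and Mrpl52 (270.1 ± 19.9), both lower in pup 2, and Mrps21 (254 ± 11.3), not called. The 22 aminoacyl-tRNA synthetase genes, which load amino acids onto transfer RNAs, had a median of 12.6 ± 0.746. Mars2 was higher and Lars2 lower in pup 2, beside the same 12.9% and 8.33% of all genes. Lars2, for leucine, stood far above the others of that list at 911 TPM in pup 2 and 1040 in pup 1. Whether all reads assigned to Lars2 came from its messenger RNA was not tested. Next came Gars at 87.6 ± 0.106 and Kars at 81.6 ± 1.27, which also serve the cytosol.

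The 15 genes of transfer and ribosomal RNA modification had a median of 10.4 ± 0.438 TPM, led by Qtrt1 (21.5 ± 0.884), Pus1 (20.9 ± 0.113) and Trmu (18.3 ± 0.297). Of all the genes of these machinery and subunit lists, Cdk5rap1 alone differed 1.5-fold beyond its quantification error, and it was higher in pup 2. Over all genes, 1.06% were higher and 0.545% lower in pup 2 by that rule. It encodes the enzyme that adds a methylthio group to certain mitochondrial transfer RNAs and had 1255 counts (22.3 TPM) in pup 2 against 337 (5.35 TPM) in pup 1, a log2 difference of 1.87. The transfer RNAs it acts on are among the 22 genes that these libraries did not measure.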

How the data were processed

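Total RNA of the stomach of newborn mice was analysed from the gene tables, 1 per library, on mm10 with GENCODE M4 per the deposited text files. Aligner and quantifier were not given in the sources used here; column names are those of RSEM. The authors deposited expected counts, estimates of the reads of each gene, with shared reads divided among genes. The authors deposited TPM scaled per effective length over all features. The posterior mean TPM, the posterior SD and the 95% bounds that the authors deposited are non-negative signal columns on the TPM or count scale. Transcript tables were not used.

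Symbols, positions and transcripts came from GENCODE M21, matched on IDs without version; all 37 members matched with equal lengths. Copies were found with blastn (BLAST 2.17.0+, word size 20, e-value 1e-10) against the transcripts; those at 90% identity or more numbered 17, of which 15 are in the tables. Sharing was scored as exact windows of 100 bases on both strands. Genes and lists were chosen with earlier results of these data known. Named were all 37 members, copies with a mean count of at least 100, and of each list the 3 highest genes and any that differed 1.5-fold with intervals apart; any other copy or gene named was picked after seeing its values. No test between groups exists. On simulated counts for the pup comparison, 2-fold changes were called in 100 of 100 genes set higher and 93 of 100 set lower, and 57 of 13751 unchanged genes were called; only counting error was simulated. Scaling alternatives used edgeR 4.0.16 and DESeq2 1.42.0 on counts rounded to whole numbers, over 18513 genes with a mean count of at least 10. A count of 0 allows up to 3 counts, a CPM of 0.0600 in pup 2 and 0.0582 in pup 1; floors and intervals cover counting and read assignment only.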

Additional observations from a re-analysis of the deposited data

How the results depend on the processing

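Levels depended most on the chromosome 1 copies and on the length used. Adding the TPM of the copies gave 6.56% of TPM for the messenger RNAs (4.29% as reported), 4.08% of counts for all members (3.12%), and medians of 719 TPM for complex I (607), 10740 for complex IV (3824) and 11181 for complex V (10840). Adding the counts over the member's length, chosen after the data were seen, gave 6.06%, 717, 6237 and 11179. Counts per full length gave 3.86% for the messenger RNAs, 3011 for their median (2959) and 8592 for complex V. The posterior mean gave 2917 for that median and 9953 for complex V. The mean ratio of mitochondrial to nuclear medians went to 2.45 for complex I (2.07), 9.93 for complex IV (3.53) and 18.8 for complex V (18.3) with copy TPM added, and to 2.45, 5.77 and 18.8 with copy counts added. With Ndufa4 counted in complex IV it was 3.13 there and 2.10 for complex I; all these ratios were chosen after the data were seen. The copies held 23.8% of counts but 30.6% in TPM. At 1.5-fold or 2-fold, 0 members were called in either direction; with the median ratio of nuclear genes set to 0, 2 were higher and 8 lower in pup 2.

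The median log2 difference of the messenger RNAs stayed below 0, from -0.14 with TMM or DESeq2 scaling to -0.02 with the copies added; it was -0.06 over the 5 genes with no shared window, both of these chosen after the data were seen. Each pup alone gave 2.95% to 3.28% of counts for all members and 4.20% to 4.38% of TPM for the messenger RNAs. No paired analysis was possible because there is 1 group. Depth limits none of the 15 genes. The division of reads leaves a posterior SD of 9.43% of the posterior mean count or more in 5 of them.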
